A study of Mus musculus with 4 samples.

Results

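Notch signaling was followed through 10 genes in the regenerating digit of the mouse: the receptors Notch1, Notch2, Notch3 and Notch4, the ligands Jag1, Jag2, Dll1 and Dll4, and the target genes Hey1 and Hes1. They were chosen by gene symbol, and all 10 were found among the 33696 genes of the count matrices, 1 row each. Tissue labelled as P3 digit, P3 being the terminal phalanx, of female C57BL/6 mice (C57BL/6J in the methods) aged 6–8 weeks was profiled by droplet-based scRNA-Seq, with hindlimb digits 2–4 of 10 mice pooled in each of 4 libraries, after amputation of the digit tip. The digits were cut at the proximal end of the next phalanx (P2), so that the cells also come from P2 and the joint between. The methods describe tip amputation on digits 2 and 4, so as described the pool also held the digit between them, not amputated. SAR131675, an inhibitor of the lymphatic growth factor receptor VEGFR3 given in chow at 30 mg/kg for 8 days, was compared with control diet, and lymph node removal on one limb (LNR), inguinal and popliteal nodes by the methods, with sham. The methods start the chow before amputation. The labels give no time after amputation, and the study's text names both 5 and 8 days postamputation (DPA) for the diet libraries. For gene expression in LNR digits it gives 8 DPA. The labels call the control diet and sham libraries untreated, and the study's text uses the opposite limb as sham. No transgene or deletion is named for any of these mice. Each condition had 1 library and the labels number each library as a batch of its own, so batch and condition cannot be told apart, no p-value can be given, and every interval below covers counting error only.

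Notch is a signal between touching cells. A ligand of the Jagged or Delta-like family on one cell binds a receptor on its neighbor, proteases then release the receptor's intracellular part, and this moves to the nucleus, joins the DNA-binding protein RBPJ and turns on genes of the Hes and Hey families, which encode repressors. In vessels the pathway is known for arterial identity and for the choice between tip and stalk cells of a sprout, in mural cells for the survival of smooth muscle, and in the epidermis for the exit of basal keratinocytes into the spinous layer.

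Promoter sequences are shown for 3 members whose levels, given below, differed between vessel cell classes, 2 of them endothelial (Notch4 and Dll4) and 1 mural (Notch3), so that their letters can be set beside those levels. The windows run from 250 bases before to 50 bases after the annotated start and come from RefSeq on GRCm38.p6, which is not the GRCm39 build that the submitters' processing notes give for the counts. They lie at chr17:34564045-34564344 on the plus strand, chr2:119325534-119325833 on the plus strand and chr17:32166841-32167140 on the minus strand. Capitals mark the ETS core, GGAA or TTCC on either strand, the letters that ETS factors of endothelial cells bind.
Notch4: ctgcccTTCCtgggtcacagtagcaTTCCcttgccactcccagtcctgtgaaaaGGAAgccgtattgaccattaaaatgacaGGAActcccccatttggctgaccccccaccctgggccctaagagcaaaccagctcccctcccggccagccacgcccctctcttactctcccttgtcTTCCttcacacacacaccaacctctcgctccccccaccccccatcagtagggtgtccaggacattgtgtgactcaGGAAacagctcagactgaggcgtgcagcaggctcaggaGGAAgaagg
Dll4: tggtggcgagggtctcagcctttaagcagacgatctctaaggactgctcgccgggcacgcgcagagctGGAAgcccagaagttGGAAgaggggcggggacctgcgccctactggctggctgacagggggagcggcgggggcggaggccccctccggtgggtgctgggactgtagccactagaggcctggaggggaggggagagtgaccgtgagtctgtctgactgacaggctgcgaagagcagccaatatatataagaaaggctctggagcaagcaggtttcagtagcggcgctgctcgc
Notch3: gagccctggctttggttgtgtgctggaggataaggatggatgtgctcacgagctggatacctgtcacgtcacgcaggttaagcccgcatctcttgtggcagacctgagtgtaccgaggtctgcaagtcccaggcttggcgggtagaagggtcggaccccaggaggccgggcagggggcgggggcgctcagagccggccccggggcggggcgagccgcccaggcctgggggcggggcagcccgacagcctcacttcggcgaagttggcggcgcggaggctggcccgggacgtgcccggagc
The Notch4 window held 7 such cores, the Dll4 window 2 and the Notch3 window 0. Windows were found for 8 members, 9 windows in all because Dll1 had 2, and no window was found for Hes1 and Hey1. Jag1 and Notch1 had 4 cores each, Notch2 had 3, each Dll1 window had 1 and Jag2 had 0. The core is common, since 96.0% of 32851 promoter windows held it, with a median of 3 matches. The RBPJ core, TGGGAA or TTCCCA, was in 0 of the 9 windows and in 25.6% of all windows. These matches describe letters, not binding.

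After limits on genes, UMIs (unique molecular identifiers, each a captured transcript) and mitochondrial share, 19827 LNR, 20669 sham, 29076 SAR131675 and 24030 control diet cells remained, with a median of 5725, 5851, 11316 and 10712 UMIs. LNR and sham shared 101 barcodes and the diet libraries 210, against at most 2 between experiments. Cells were grouped by clusters named from marker genes, with the 10 genes kept out of the clustering, and 26 classes had at least 30 cells in every library. Some broad classes had few markers that were highest in their own class: 3 of 9 for blood endothelial cells and 1 of 6 for fibroblasts. A level is in CPM, the UMIs of a gene over all UMIs of the class, scaled to 1000000, and is given as mean ± SD over the 4 libraries, which differ in condition and experiment. The diet and node pairs differed in depth and in the Cell Ranger version of their headers, and their levels differed for some members over many classes. Notch2 was higher in the diet pair in 24 of 24 classes with enough UMIs, by a median of 1.34 on the log2 scale, and Hes1 was lower there in all but 1 of 24, with a median log2 ratio of -0.97. For the 10 genes, the order of classes within a library or the overlap of ranges is therefore set beside the leading means. Other genes of the pathway are ranked by means only. The arterial class rested on 45 to 82 cells a library and the pericyte class on 59 to 100.

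**Figure D1:**
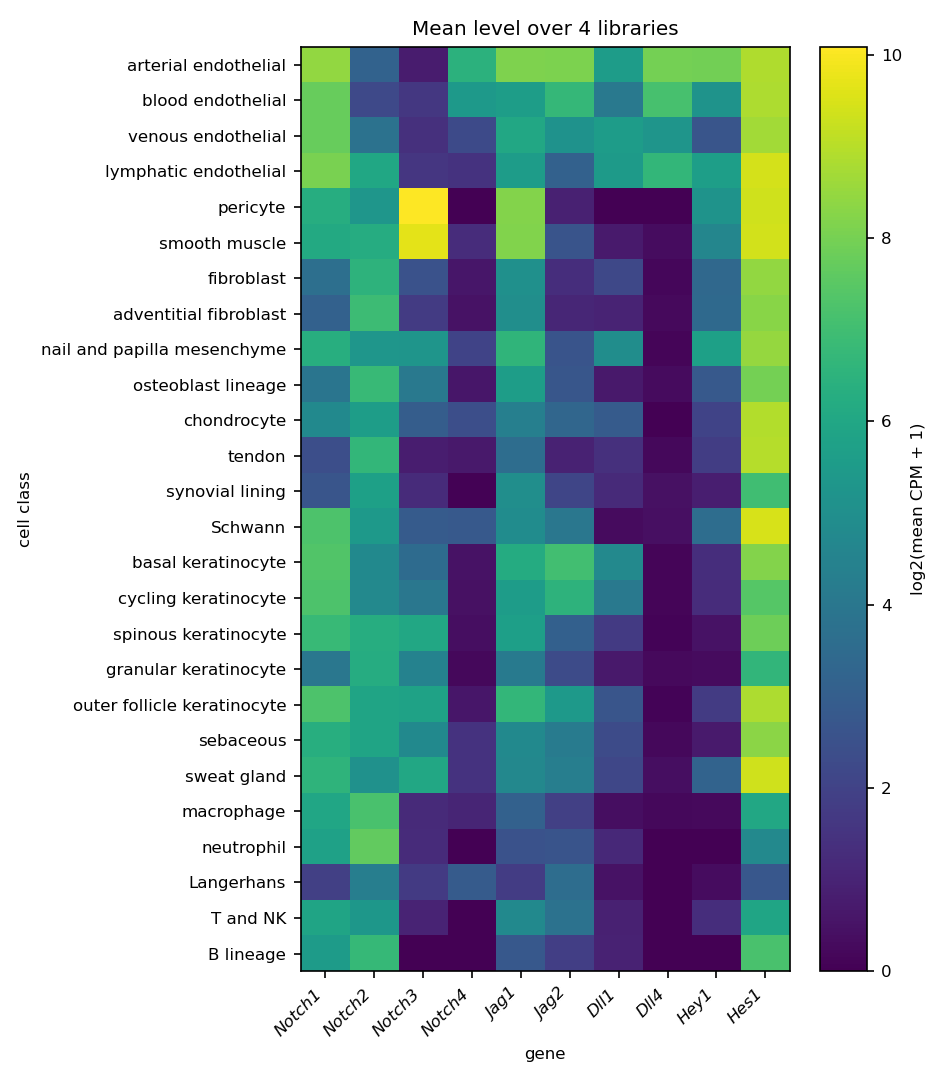
Mean level of each of the 10 genes (columns) in each of the 26 cell classes (rows), as log2(mean CPM + 1) over 4 libraries, with color running from 0 to the highest value. Notch3 stood out in pericytes and smooth muscle, Dll4 was above 1 CPM on average in the 4 endothelial rows only, and Hes1 was high in most rows.

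Among the 26 classes Notch1 was highest in endothelial cells, followed by basal and cycling keratinocytes. When each cell was classed by its own markers, hair and nail keratin cells, which are not among the 26, had the highest mean of Notch1 at 496 CPM and of Jag1 at 378 CPM. By clusters, the level of Notch1 was 367 CPM in arterial endothelial cells of the SAR131675 library, 315 CPM in control diet, 338 CPM in LNR and 370 CPM in sham. The mean was 347 ± 26.0 CPM (SD, n = 4). Lymphatic endothelial cells followed at 267 ± 13.4 CPM, with a range of 255 to 285 CPM that lay below every arterial value. Venous and other blood endothelial cells, at 212 ± 33.3 and 211 ± 45.0 CPM, could not be placed in order, since each was higher in 2 of 4 libraries. Basal, cycling and outer follicle keratinocytes held 161 ± 40.2, 155 ± 35.1 and 155 ± 41.8 CPM, and their ranges overlapped. Basal and spinous keratinocytes were large classes, with 3473 to 8234 and 1535 to 4639 cells a library. They held a mean of 29.4% and 17.1% of all Notch1 UMIs. The lowest level was in Langerhans cells, the dendritic cells of the epidermis, at 2.74 ± 1.08 CPM.

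Notch2 was highest in myeloid and mesenchymal cells. Neutrophils had the highest mean, but the experiments differed: 299 CPM in SAR131675 and 359 CPM in control diet against 82.9 in LNR and 65.4 in sham. Macrophages, at 191, 215, 83.2 and 90.3 CPM in the same order of libraries, and adventitial fibroblasts, at 136, 162, 90.0 and 87.5 CPM, had overlapping ranges with neutrophils. In the node pair adventitial fibroblasts had the highest mean, with macrophages slightly higher in sham. Blood endothelial cells were at the other end, with 3.66 ± 2.57 CPM, and arterial cells with 7.98 ± 7.27 CPM, 0 UMIs being found in LNR. Lymphatic endothelial cells differed from both, at 62.7 CPM, above venous and blood endothelial cells in 4 of 4 libraries with no overlap of ranges.

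Notch3, which smooth muscle cells of arteries need for their maintenance, was highest in mural cells. Pericytes, the contractile cells around capillaries, held 1260 CPM in SAR131675, 1307 in control diet, 882 in LNR and 885 in sham, and vascular smooth muscle held 950, 989, 693 and 626 CPM. Pericytes were higher in each library, by a mean of 0.41 ± 0.06 on the log2(CPM + 1) scale (SD, n = 4), although the ranges overlapped between experiments. All other classes of the 26 lay far below: the next, sweat gland cells, had 65.5 ± 31.3 CPM, so that the mean of smooth muscle was 12.4 times higher. Cells of no class described here held 1793 of 3997 Notch3 UMIs in LNR and 1804 of 3981 in sham. In SAR131675 they held 3617 of 19263 and in control diet 2452 of 15316. These UMIs are outside the class levels. At least 1 Notch3 UMI was seen in 83.3% to 96.4% of pericytes, and in 66.7% to 84.8% after thinning each cell to 1500 UMIs. Venous cells held 1.31 to 1.87 CPM, but this low level in the node pair depends on how strictly clusters with pericyte markers were left unnamed: under a looser limit it was 103 CPM in LNR and 172 CPM in sham. The arterial class had 2 Notch3 UMIs in SAR131675 and 0 in the other libraries. Pericytes also held 2970 to 13130 CPM of the 7 summed smooth muscle markers, against 28120 to 37860 CPM in smooth muscle, and 3337 to 6738 CPM of the 6 fibroblast markers. The part of these cells in the pericyte level was not tested, and fibroblasts themselves had 4.76 CPM of Notch3.

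Notch4 was highest in arterial and other blood endothelial cells. Arterial cells had 74.4 CPM in SAR131675, 61.2 in control diet, 135 in LNR and 80.9 in sham, and blood endothelial cells 27.7, 28.7, 55.5 and 55.8 CPM. The arterial class was higher in every library, by a mean of 1.07 ± 0.38 on the log2(CPM + 1) scale, and the next class, Langerhans cells, had 6.49 ± 2.61 CPM from 18 UMIs in all. Venous and lymphatic endothelial cells held 3.83 ± 2.22 and 1.78 CPM. Both blood endothelial and arterial cells were above lymphatic cells in 4 of 4 libraries, with no overlap. The 4 endothelial classes held 309 of all 982 Notch4 UMIs (31.5%). The other described classes held 386, and 287 lay in cells of no class described here. Of the 26 classes, 14 had a mean under 1 CPM and 4, pericytes, neutrophils, T and NK cells and B lineage cells, had no UMI.

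**Figure D2:**
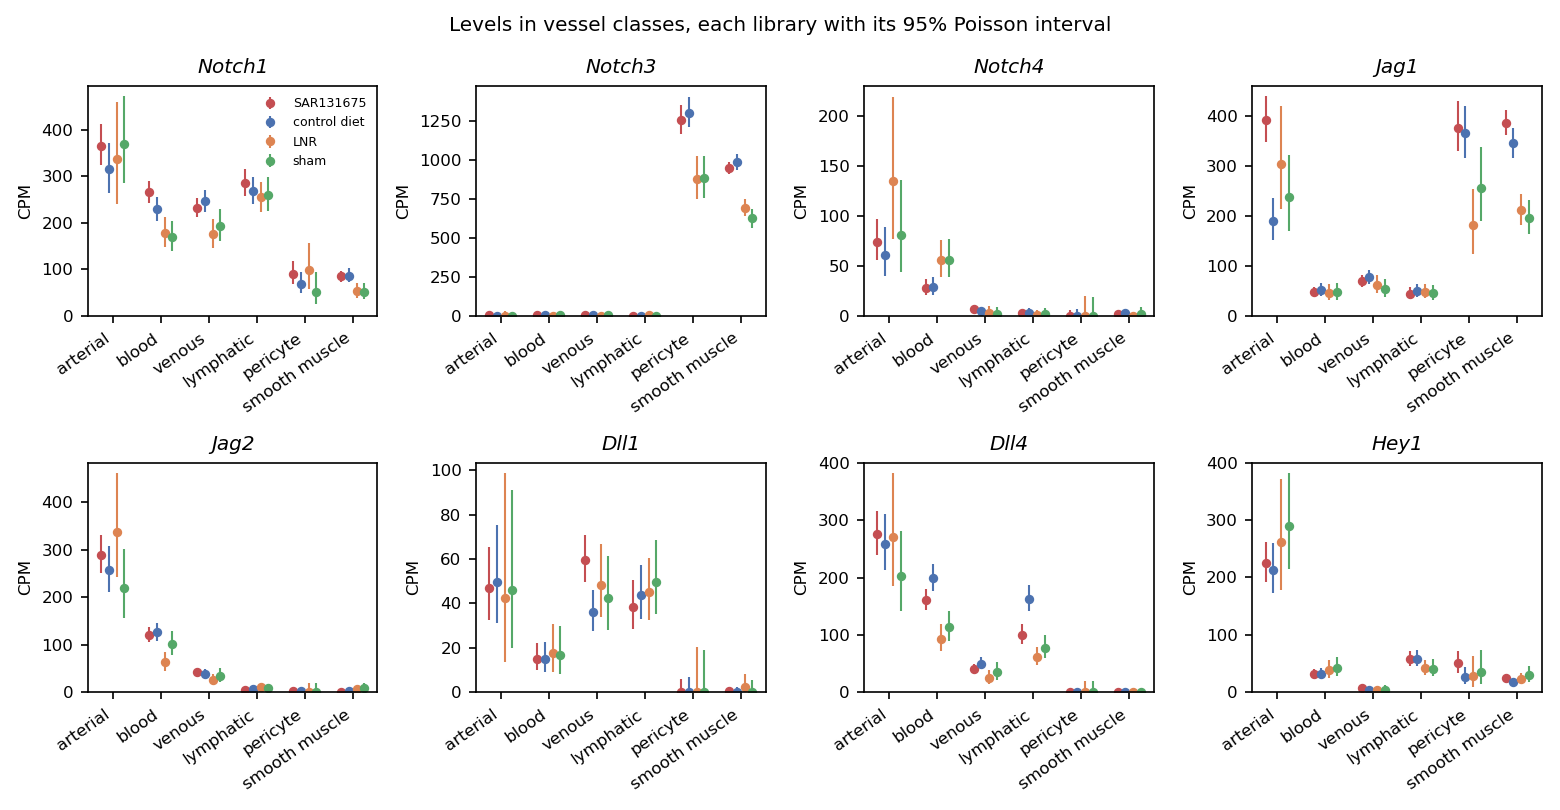
CPM of 8 of the genes in 4 endothelial and 2 mural classes, 1 point per library with its exact 95% Poisson interval and 1 panel per gene, each axis from 0. Notch3 was at most 7.17 CPM in the 4 endothelial classes, under a naming limit set after Notch3 was seen in venous cells, and between 626 and 1307 CPM in mural cells, whereas Dll4 was between 24.9 and 276 CPM in the endothelial classes and at most 1.11 CPM in mural cells.

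The makeup of the receptors differed by lineage. Shares are of the summed UMIs of the 4 receptors, which count transcript ends without scaling for length, so that a share is set against the same gene's share in another class. Notch1 made up 92.4% of receptor UMIs in venous cells, 80.7% in lymphatic cells and 78.5% in arterial cells, against 6.59% in pericytes. The venous share depends on the naming limit: under the looser one Notch1 was 60.1% in LNR and 47.8% in sham, with Notch3 at 36.5% and 48.4%, while the diet libraries stayed at 89.6% and 90.0%. Notch3 made up 90.2% in pericytes and 85.3% in smooth muscle. Notch2 made up 94.1% in tendon cells, 91.8% in adventitial fibroblasts, 88.6% in the synovial lining and 83.8% in other fibroblasts, against 26.4% in nail and papilla mesenchyme, where Notch1 (50.1%) and Notch3 (21.8%) held the rest. In that mesenchyme Notch1 was higher and Notch2 lower than in fibroblasts in 4 of 4 libraries, at 78.1 against 11.7 CPM and 37.9 against 91.5 CPM.

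**Figure D3:**
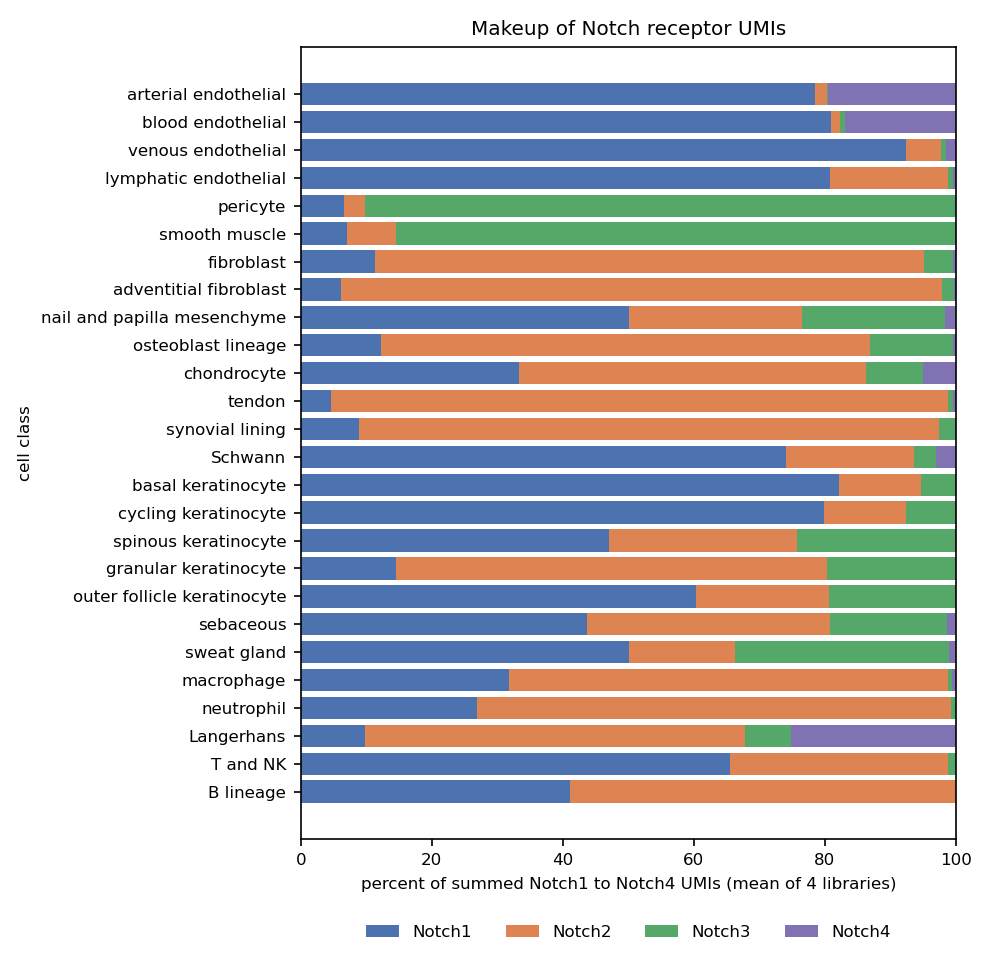
Share of each receptor in the summed Notch1 to Notch4 UMIs of a class, as a mean of 4 libraries, 1 bar per class from 0 to 100 percent. Pericytes and smooth muscle were mostly Notch3, tendon cells and fibroblasts mostly Notch2, and endothelial classes mostly Notch1 with Notch4 in arterial and blood endothelial cells. Langerhans cells had as few as 6 receptor UMIs in a library and B lineage cells 4.

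Among the ligands, Dll4, the Delta-like ligand of arteries and sprouting tips, was highest in the endothelial classes. Arterial cells held 276 CPM in SAR131675, 258 in control diet, 270 in LNR and 202 in sham, from 200, 114, 32 and 35 UMIs. Blood endothelial cells held 161, 199, 93.4 and 113 CPM, lymphatic cells 101, 163, 61.5 and 77.4 CPM, and venous cells 39.7, 50, 24.9 and 34.8 CPM. The order arterial, blood, lymphatic, venous was the same in each library, and the ranges of blood and lymphatic cells overlapped. The highest mean outside these 4 classes was 0.38 CPM, in the synovial lining, and the other 22 classes held 100 Dll4 UMIs against 1746 in the endothelial classes. A further 724 of the 2570 UMIs lay in cells of no class described here, mostly unnamed clusters, so that the 4 endothelial classes held 73.5% of all Dll4 UMIs in SAR131675, 70.7% in control diet, 55% in LNR and 56.5% in sham. A capillary endothelial class was named in the diet pair only, with 47 and 48 cells holding 63 and 74 Dll4 UMIs (131 and 174 CPM), and is outside these shares, so the blood endothelial class may not hold the same cells in both experiments. At least 1 UMI was found in 73.2%, 80.0%, 40.0% and 31.6% of arterial cells, against 0.22%, 0.12%, 0.03% and 0.05% of basal keratinocytes, a class not known to express it, at median depths of 8257, 7454, 2275 and 2452 against 10939, 10408, 6533 and 6040 UMIs. After thinning, the arterial share was 17.1% to 39.6%.

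Jag1 was shared by mural and arterial cells. Pericytes, smooth muscle and arterial cells had 295 ± 93.5, 285 ± 95.8 and 281 ± 87.3 CPM, and no order could be given. In the arterial class the libraries ran from 190 CPM in control diet to 391 CPM in SAR131675, with 304 in LNR and 237 in sham. The 7 summed pericyte markers were at 13.8 to 101 CPM in arterial cells against 13200 to 18250 CPM in pericytes, and the 7 smooth muscle markers at 105 to 165 CPM. Outer follicle keratinocytes (102 ± 35.8 CPM) and nail and papilla mesenchyme (97.1 ± 57.0 CPM) came next, below each of the 3 vessel classes in every library. Jag1 made up 99.8% of the ligand UMIs of pericytes.

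Jag2 marked arterial and basal epithelial cells. It was at 289, 256, 338 and 220 CPM in arterial cells of SAR131675, control diet, LNR and sham, above all other classes in every library. Basal keratinocytes followed at 153, 181, 98.6 and 92.7 CPM, blood endothelial cells at 103 ± 28.7 CPM and cycling keratinocytes at 89.7 ± 30.9 CPM, with overlapping ranges. Basal keratinocytes held a mean of 54.7% of all Jag2 UMIs. Lymphatic endothelial cells were low, at 7.73 CPM, below venous cells (34.4 CPM) in 4 of 4 libraries.

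Dll1 had its highest means in 3 of the 4 endothelial classes. Venous (46.6 ± 10.1 CPM), arterial (46.3 ± 3.14 CPM) and lymphatic cells (44.3 ± 4.72 CPM) did not differ beyond their spread, while blood endothelial cells held 16.0 ± 1.28 CPM, below arterial and lymphatic cells in every library without overlap. Nail and papilla mesenchyme had 42.2 CPM in SAR131675 and 44.7 in control diet, above lymphatic cells in both and above venous cells in the latter, but 18.6 in LNR and 14.7 in sham. Basal keratinocytes held 25.7 ± 7.25 CPM. Basal keratinocytes held a mean of 50.8% of all Dll1 UMIs. In lymphatic cells the ligand UMIs were 48.9% Dll4, 24.0% Jag1, 23.0% Dll1 and 4.07% Jag2, and in blood endothelial cells 45.2% Dll4, 16.1% Jag1, 5.54% Dll1 and 33.1% Jag2. Among the ligands these classes differed most in Jag2, lower in lymphatic cells in 4 of 4 libraries by a mean of 3.55 ± 0.76 on the log2(CPM + 1) scale.

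The target genes differed in how widely they were found. Hey1 had its highest level in arterial cells, at 225 CPM in SAR131675, 213 in control diet, 262 in LNR and 289 in sham, a mean of 247 ± 34.8 CPM and 4.74 times that of the next class. These few cells held a mean of 8.18% of all Hey1 UMIs, against 14.1% in fibroblasts and 9.82% in adventitial fibroblasts. Nail and papilla mesenchyme came next by its mean, but with 102 and 85.6 CPM in the diet libraries and 12.3 and 9.25 CPM in the node libraries. Lymphatic endothelial cells held 57.5, 57.8, 42.0 and 40.7 CPM of Hey1 against 7.93, 4.65, 3.93 and 4.53 CPM in venous cells. The difference between them was 3.03 ± 0.29 on the log2(CPM + 1) scale, lymphatic cells being higher in 4 of 4 libraries. Hes1 was found in every class and library. Schwann cells (719 ± 294 CPM), lymphatic cells (691 ± 205), smooth muscle (670 ± 150), pericytes (652 ± 165) and sweat gland cells (645 ± 259) led with overlapping ranges. Hes1 was lowest in Langerhans cells, at 5.66 ± 2.88 CPM, 127 times below the highest class. Neutrophils held 25.6 ± 15.5 CPM.

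The arterial class differed from venous cells in 6 of the 10 genes without overlap, all higher in arterial cells: Notch1, Notch4, Jag1, Jag2, Dll4 and Hey1. The log2(CPM + 1) difference was 5.34 ± 0.51 for Hey1, 4.26 ± 1.01 for Notch4, 2.98 ± 0.49 for Jag2, 2.75 ± 0.46 for Dll4, 2.06 ± 0.52 for Jag1 and 0.72 ± 0.28 for Notch1. No gene was lower in arterial cells in every library. No share over all genes was worked out for this contrast, so the 6 of 10 have no background beside them. Lymphatic cells were above venous cells in every library for Notch1, Notch2, Dll4, Hey1 and Hes1, and below them for Jag1 and Jag2. Notch4 rested on 1 or 2 UMIs in both classes of the node libraries and was not placed in order. The venous class of the node pair depends on the naming limit. It held 199 cells in LNR and 178 in sham, and 273 and 303 under the looser limit. The contrasts with venous cells, here and above, were not worked out under that looser limit. The arterial markers summed to 2345 to 2778 CPM in arterial cells, 715 to 755 CPM in lymphatic cells and 225 to 300 CPM in venous cells.

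The epidermis was followed from basal over spinous to granular keratinocytes. Of their markers, 5 of 7 basal and 7 of 7 granular ones were highest in their own class among the 26, but 0 of 6 spinous ones were. Notch1 was at 206, 185, 128 and 127 CPM in basal cells of SAR131675, control diet, LNR and sham, at 142, 127, 83.8 and 88.1 CPM in spinous cells and at 11.9, 7.37, 19.4 and 21.1 CPM in granular cells, so that it was lower at each step in every library. Notch3 had its highest level in the middle layer. It was at 15.4, 14.9, 5.51 and 6.92 CPM in basal, 99.98, 94.7, 32.3 and 30.6 CPM in spinous and 23.0, 21.4, 21.7 and 18.9 CPM in granular cells. Notch2 was lower in basal than in spinous cells in every library, with means of 26.6 and 76.3 CPM, and spinous and granular cells (75.2 CPM) could not be placed in order. The ligands were basal. Jag2 was 131 ± 42.7 CPM in basal cells, 7.54 CPM in spinous cells and 3.93 CPM in granular cells, and Dll1 25.7, 2.32 and 0.60 CPM, both lower at each step in every library without overlap. Jag1 was lower at each step too, at 73.4, 50.4 and 16.9 CPM, with overlap between basal and spinous cells. Hes1 was lower in granular than in spinous cells in every library, with means of 97.8 and 232 CPM, but basal and spinous cells (293 CPM and 232 CPM) were not in the same order everywhere, control diet having more in spinous cells. Hey1 stayed under 2.1 CPM in all 3 layers. Granular cells were the deepest of the 3, with median depths of 15126 to 21459 UMIs against 6040 to 10939 in basal cells.

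**Figure D4:**
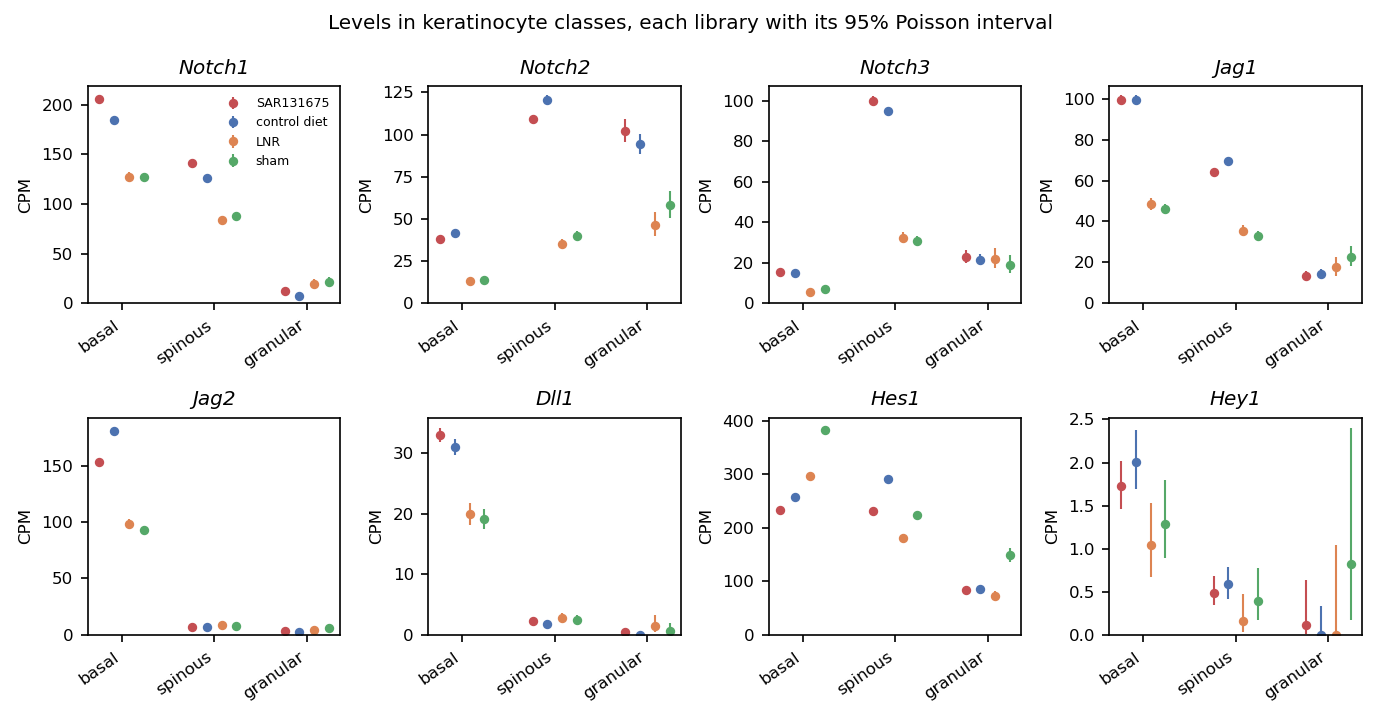
CPM of 8 of the genes in basal, spinous and granular keratinocytes, 1 point per library with its exact 95% Poisson interval, each axis from 0. Notch1, Jag1, Jag2 and Dll1 went down from basal to granular cells in each library, and Notch3 had its highest point in the spinous class.

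Outer follicle keratinocytes were named from Sostdc1, Lrig1, Krt17, Krt79, Lhx2, Krt75 and Defb6, and the part of the follicle they came from was not resolved. They differed from basal epidermal cells in Jag2, Dll1, Notch3 and Hes1. Jag2 was 41.9 against 131 CPM and Dll1 5.27 against 25.7 CPM, lower in 4 of 4 libraries without overlap. Notch3 was 55.3 against 10.7 CPM and Hes1 464 against 293 CPM, higher in 4 of 4 without overlap. Jag1 (102 against 73.4 CPM) and Notch2 (58.3 against 26.6 CPM) were higher in 4 of 4 as well, but their ranges overlapped between experiments. The same held for Hey1 at a low level, with 2.00 to 3.10 against 1.04 to 2.01 CPM. Notch1 was 155 against 161 CPM, with overlapping ranges.

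For SAR131675 against control diet, which asks what VEGFR3 inhibition did to these genes in each cell class, 125 of 260 combinations of gene and class had at least 50 UMIs over the pair and at least 50 cells in each library, in 24 classes. The remaining 135 were not compared. A ratio of at least 1.5-fold was met by 8 of the 125 (6.4%), against 7.97% of 208032 values over all genes and classes. There were 5 higher, where the background was 3.89%, and 3 lower, where it was 4.08%. The split was 12 and 2 of 128 values with classes set by the markers of each cell. It was 11 and 4 of 125 with cells weighted equally and 10 and 4 of 138 at a finer clustering. No share over all genes was worked out for these settings. The fold was passed with a 95% interval that left out a ratio of 1 by 6 of the 125 (4.8%), against 6.06% of all values. The median log2 ratio of the members was 0.0037 and that of all genes -0.021, and the members' share past 1.5-fold was close to the background at the main setting.

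In lymphatic endothelial cells, whose receptor the drug inhibits, Dll4 was 101 CPM with SAR131675 and 163 CPM with control diet, from 131 and 197 UMIs, a log2 ratio of -0.70 (95% interval -1.03 to -0.37). The arterial markers were at 755 and 718 CPM and the 9 blood endothelial markers at 3325 and 3404 CPM in these cells. The ratio was -0.47 when the upper limits on genes and UMIs were dropped, short of 1.5-fold, and -1.47 when cells with markers of another lineage were removed. Dll4 was also below a ratio of 1 in blood endothelial (-0.31) and venous cells (-0.33), neither past 1.5-fold. In the arterial class, which had too few LNR cells to be compared, Dll4 was 276 and 258 CPM. Notch1, at 285 and 269 CPM, and Hes1, at 519 and 508 CPM, had intervals in lymphatic cells that held a ratio of 1. Dll1 in venous cells was 59.7 against 36.1 CPM, a log2 ratio of 0.73 (0.28 to 1.19).

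The other compared values past 1.5-fold lay outside the endothelium. Notch1 was 10.43 against 3.62 CPM in the synovial lining, from 65 and 18 UMIs, a log2 ratio of 1.53 (0.76 to 2.37). The 7 basal keratinocyte markers were at 1540 and 1659 CPM in these cells, and the ratio was 0.53 without the upper limits. Notch1 in granular keratinocytes was 11.9 against 7.37 CPM (0.69, 0.26 to 1.13), with 349 and 267 CPM of the basal markers, and ended under 1.5-fold without the upper limits (0.52) or at a finer clustering (0.44). Dll1 in outer follicle keratinocytes was 7.23 against 3.77 CPM (0.94, 0.57 to 1.33), and 0.54, 0.47 and 0.39 without the upper limits, at a finer clustering and with cells weighted equally. Notch2 in smooth muscle was 78.5 against 122 CPM (-0.63, -0.93 to -0.33). Jag1 in Schwann cells (42.4 against 24.7 CPM) and Notch3 in adventitial fibroblasts (2.61 against 3.92 CPM) had intervals that held a ratio of 1, and the latter ended short of 1.5-fold under 3 alternatives (-0.51 to -0.56). The arterial class was left out because LNR had 45 cells, under the minimum of 50 asked of every library, although the diet libraries had 82 and 55. There Jag1 was 391 against 190 CPM, from 284 and 84 UMIs (1.04, 0.68 to 1.41), and Hes1 357 against 165 CPM, from 259 and 73 UMIs (1.11, 0.73 to 1.51), both past 1.5-fold in size and outside the counts above. For this class no share over all genes and no alternative ratios were worked out, so these sizes have no background beside them.

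For LNR against sham, which asks the same of lymph node removal, 104 of 260 values could be compared and 4 passed 1.5-fold (3.85%), against 4.85% of 150362 values. They were 0 higher, with a background of 2.52%, and 4 lower, with a background of 2.33%. The split was 4 and 4 of 101 values with classes set by the markers of each cell. It was 3 and 4 of 106 without the upper limits and 3 and 10 of 104 with cells weighted equally. No share over all genes was worked out for these settings. At the main setting all 4 values past the fold also had an interval that left out a ratio of 1. This is 3.85% of the 104 against 3.03% of all values. In the arterial class, not compared and with no share over all genes, Jag2 was 338 CPM in LNR against 220 in sham, from 40 and 38 UMIs (0.62, -0.06 to 1.30). The medians were -0.0062 for the members and 0.0016 for all genes, and the members' share was again close to the background. Hes1 in granular keratinocytes was 72.9 CPM after LNR, where sham had 148 CPM, from 259 and 541 UMIs, a log2 ratio of -1.02 (-1.24 to -0.81). In the same class the basal markers were at 1298 and 899.5 CPM, and their part in the ratio was not tested. Hes1 was also lower in LNR in basal (297 against 382 CPM) and spinous keratinocytes (180 against 223 CPM), short of 1.5-fold, and 83.8 against 86.1 CPM in granular cells of the diet pair. Jag2 in blood endothelial cells was 62.8 against 101 CPM (-0.69, -1.27 to -0.11), and -0.17 when classes were set by the markers of each cell. Notch3 in nail and papilla mesenchyme was 10.5 against 20.7 CPM (-0.97, -1.72 to -0.25), where the pericyte markers summed to 405 and 451 CPM and the smooth muscle markers to 218 and 400 CPM. Notch2 in smooth muscle was 35.5 against 61.6 CPM (-0.79, -1.51 to -0.09). Dll4 in lymphatic cells was 61.5 against 77.4 CPM (-0.33, -0.88 to 0.21).

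Of 102 values compared in both pairs, 1 passed 1.5-fold the same way in both (0.98%), against 0.294% of 145351 values over all genes. It was Notch2 in smooth muscle, lower in SAR131675 and in LNR. The fibroblast markers in these cells were at 1792 and 1600 CPM in the diet pair and 1615 and 1731 CPM in the node pair. It was not stable: the diet ratio was -0.34 without cells that held markers of another lineage and -0.20 with cells weighted equally, and the node ratio -0.47 without the upper limits and -0.29 at a finer clustering.

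**Figure D5:**
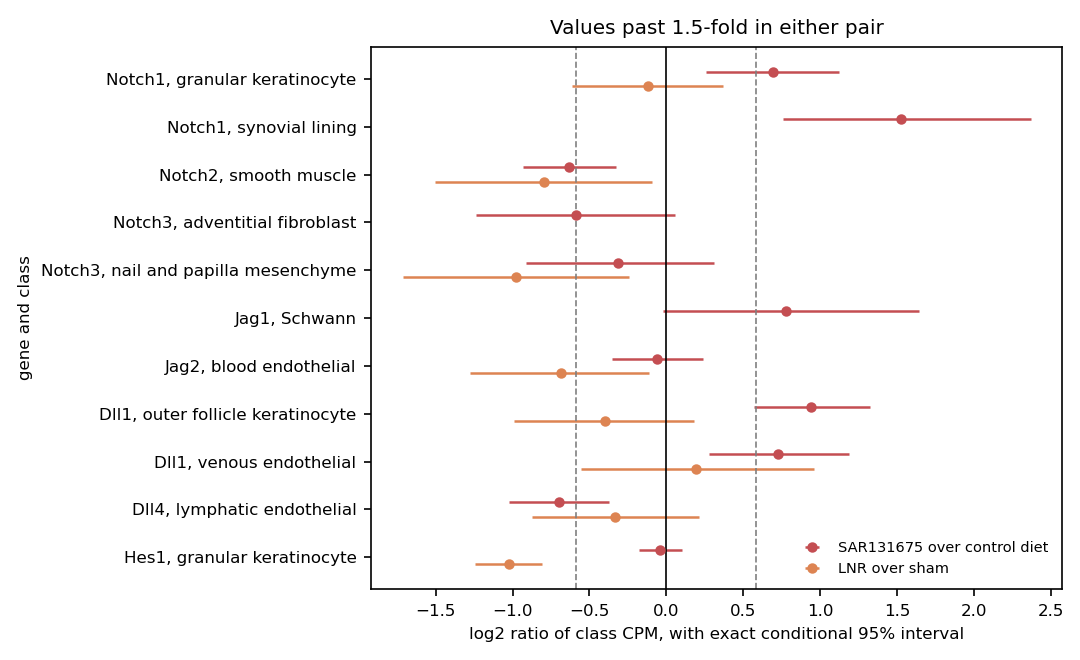
Log2 ratio of CPM for each combination of gene and class past 1.5-fold (dashed lines) in the SAR131675 over control diet pair or the LNR over sham pair, with exact conditional 95% intervals for counting error; a missing point was not compared. Notch2 in smooth muscle passed the fold on the same side in both pairs, and Hes1 in granular keratinocytes was -1.02 in the node pair and -0.04 in the diet pair.

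Across 60 other genes of the pathway, sorted into 8 roles, the highest mean level in each role was in vessel cells for 5 of them. These places rest on means over the libraries, and the order within each library was not compared. The share of all genes with their highest mean in vessel cells was not worked out, so 5 of 8 has no background beside it. Dlk1, a Delta-like protein without the receptor-activating domain, was at 111 ± 21.1 CPM in pericytes, and Heyl, a target gene of the Hey family, at 191 ± 38.4 CPM in the same cells. Mib1, the ubiquitin ligase that starts ligand endocytosis, also had its highest mean in pericytes, at 144 ± 43.8 CPM and at most 184 CPM in a library. Nail and papilla mesenchyme held 172 CPM of Mib1 in SAR131675 and 259 CPM in control diet, so pericytes did not lead in control diet. Mfng, a Fringe glycosyltransferase that modifies receptors, was highest in arterial cells at 60.6 ± 22.1 CPM, and Dtx1, a regulator of receptor turnover, in lymphatic cells at 300.4 ± 79.4 CPM. The 3 others were Furin, the convertase that cleaves receptors during their maturation, at 916 ± 63.9 CPM in the synovial lining, Rbpj at 377 to 2020 CPM in macrophages and the corepressor Ncor1 at 642 ± 343 CPM in T and NK cells. Between SAR131675 and control diet, 15 of 873 values (1.72%) passed 1.5-fold upward and 28 (3.21%) downward, both below the background of 3.89% and 4.08%, and the median was -0.033. By role, the lower values were 5 of 58 for receptor glycosylation, 8 of 121 for receptor turnover, 9 of 193 for receptor proteolysis and 6 among the other roles. In the node pair these named roles had, in the same order, 0 of 43, 1 of 88 and 1 of 156 lower, and 0, 6 and 4 higher. Between LNR and sham, 20 of 690 (2.9%) passed upward and 7 (1.01%) downward, against a background of 2.52% and 2.33%, and the median was -0.010. This split turned round to 17 and 22 of 690 with cells weighted equally. It was 13 and 17 of 592 with classes set by the markers of each cell. At a finer clustering it was 13 and 12 of 701, and without the upper limits 13 and 11 of 713. No share over all genes was worked out for these settings. In both pairs 1 of 680 passed the same way (0.147%, against 0.294% over all genes), Neurl1b, a ubiquitin ligase for ligands, in spinous keratinocytes at 1.29 against 0.81 CPM and 1.66 against 1.03 CPM.

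The genes whose log2(CPM + 1) was most like that of a member over the 26 classes, by Pearson's r among 17558 genes, were taken 3 to a member. Dll4 was most like Dipk2b, Podxl, a sialomucin of endothelial cells, and Hoxd3, with r = 0.99 for each. For Hey1 they were Tead2 (0.88), Ldb2 (0.87) and Jcad (0.85), for Notch4 Magix (0.85), Atp2b2 (0.85) and Gm10791 (0.83), and for Notch3 the tropomyosin Tpm2 (0.86), Tmem35a (0.84) and Mark1 (0.84). Itgb4, an integrin of the anchor of basal keratinocytes, came first for both Jag2 (0.84) and Notch1 (0.80). It was also among the markers that named basal keratinocytes, so its profile over the classes was partly set by the naming. Next came Nudt14 (0.83) and Hoxb2 (0.81) for Jag2 and Nxn (0.79) and Fam241a (0.78) for Notch1. For Jag1 they were Tnks1bp1 (0.84), Mpp2 (0.83) and Actn4 (0.82), for Dll1 Hsf3 (0.83), Ric3 (0.81) and Pkn3 (0.81), for Hes1 Bcar1 (0.88), Ttc23 (0.86) and Map4k5 (0.86), and for Notch2 A530013C23Rik (0.72), Tmem120a (0.71) and Cebpb (0.67). Hsf3 was low, with a mean of 2.80 CPM in venous cells, its leading class. All these likenesses are descriptions over classes that share libraries and depth, with no test.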

How the data were processed

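The deposited files hold unnormalized UMI counts for each gene and barcode, as the authors' Cell Ranger runs wrote them. Per the labels they were made with 10x 3' chemistry, and the submitters' processing notes name Cell Ranger 6.1.2 and GRCm39, while the file headers give 6.1.2 for the node pair and 8.0.1 for the diet pair. Barcodes with 200 to 5500 genes, at most 30000 UMIs and at most 10% mitochondrial UMIs were kept. Each pair was clustered on its own (scanpy 1.11.5, Leiden resolution 0.7, 2000 variable genes without the members, 30 components, 20 neighbors) under Python 3.11.15. Large groups of cells were clustered again, with 20 components.

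A cluster was named from marker lists when the mean scaled score was at least 0.4, at least 3 markers were found in 5% of cells, and any other lineage scored at most 0.6 of it. This limit was lowered from 0.75 after venous cells of LNR and sham were seen to hold Notch3 at 103 and 172 CPM with pericyte markers at 1118 and 1506 CPM; at 0.6 Notch3 is 1.31 and 1.51 CPM. A cluster was also left unnamed when more of its leading genes were markers of another class. The same held when it was shallow and had none of its markers among its leading genes. Clusters with over 90% of their cells from 1 library of the pair were left unnamed too. A population found mostly in 1 condition would therefore be outside the class levels and ratios. Cells in unnamed clusters (8.41% to 18.4% of a library) gave no class level. Likely doublets were not removed, except in an alternative. Scrublet called 2.55% to 6.73% per library; its automatic threshold called 1 cell in control diet, so a score of 0.25 was used there. At least 3 markers of another lineage, at 2 or more UMIs each, were found in 24.5% of SAR131675, 20.1% of control diet, 9.14% of LNR and 8.48% of sham cells.

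Levels are CPM of summed class UMIs, with exact Poisson intervals. Shares of cells are given as percentages, also after thinning to 1500 UMIs. Log2 ratios have exact conditional 95% intervals. The intervals treat UMIs as independent and cover counting error only. A value was compared with at least 50 UMIs over the pair and 50 cells in each library. Class differences are on log2(CPM + 1), and the ratio code was tested on simulated counts. Named genes were all 10 members, pathway genes past the fold in both pairs and the highest in each role, and the 3 most alike in log2(CPM + 1). The members, the marker and pathway lists and the class rules were chosen with earlier results of these data known. Motifs were searched on both strands: a serum response element (CArG box) was in 0 windows (1.63% of all), and the letters TATAAA or TTTATA, which do not cover other forms of the TATA box, were in 0 (13.6%).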

Additional observations from a re-analysis of the deposited data

How the results depend on the processing

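Of the 10 members, 10 keep their leading class with Scrublet-called cells removed, 9 with an other-lineage limit of 0.75 (chosen after seeing the data), with cells weighted equally or by thinned shares, 8 at resolution 1.2 and 7 without upper limits. Leaving out 1 library keeps 8 to 9. Removing cells with markers of another lineage keeps 2, since arterial cells then number as few as 11 and pericytes 18, so both classes drop out; 9 of 10 keep theirs among the 22 classes left. Setting classes by the markers of each cell keeps 3, or 6 of 10 among 23 shared classes, leaves as few as 26 arterial cells, moves Dll4 to lymphatic cells (98.3 CPM) and puts Notch1 (496 CPM) and Jag1 (378 CPM) highest in hair and nail keratin cells, a class not named by clusters. The members that lose their class when a library is left out are Dll1 (SAR131675 or LNR), Jag1 (control diet or sham) and Hes1 (LNR).

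SAR131675 member values past 1.5-fold number 8 of 125. They become 14 of 128 with classes by cell, 14 of 138 at resolution 1.2 and 15 of 125 with cells weighted equally. With a minimum of 20 and 200 UMIs they are 17 of 151 and 3 of 88, and at 2-fold 1 of 125. LNR values number 4 of 104, then 7 of 106 without upper limits, 8 of 101 with classes by cell and 13 of 104 with equal weights. With 20 and 200 UMIs they are 11 of 133 and 1 of 65, and at 2-fold 1 of 104. The pathway counts for the diet pair of 43 of 873 become 27 of 934 without upper limits and 71 of 873 with equal weights. For 20 UMIs, 200 UMIs and 2-fold they are 88 of 1028, 6 of 602 and 2 of 873. Those of the node pair of 27 of 690 become 82 of 877, 2 of 368 and 2 of 690 for the latter settings. The share over all genes was worked out for the main setting only, so these alternative counts have no background beside them. The pathway alternatives were chosen after seeing the data. Of 112 alternatives for the single values past the fold, 84 stay past the fold of their setting, 28 fall short and 0 turn direction. The settings of 20 UMIs, 200 UMIs and 2-fold leave each ratio as it was, so they could not weaken or turn it. At 2-fold a value falls short when it is under 2-fold. The cause of falling short was not tested. No paired analysis was possible because each condition has 1 library. Dll1, Dll4 and Notch4 could be compared in only 8, 3 and 2 classes of the diet pair and 8, 2 and 1 of the node pair.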
